A study of Mus musculus with 40 samples.

Results

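The 10 genes described here mark the GABAergic interneurons of the forebrain, and they were followed in every library of a study of mouse striatal astrocytes and neurons. They were chosen by name as *Sst*, *Npy*, *Vip* and *Cck*, which encode neuropeptide precursors, *Nos1* and *Th*, which encode neuronal enzymes, *Pvalb* and *Calb2*, which encode calcium-binding proteins, and *Lhx6* and *Nkx2-1*, which encode transcription factors. All 10 were found among the 24060 gene symbols of the count table, and all 10 passed the filter on low counts in each comparison.

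Most neurons of the striatum are medium spiny projection neurons, and interneurons are sparse. Somatostatin, neuropeptide Y and neuronal nitric oxide synthase are made together in one striatal interneuron type, while parvalbumin marks the fast-spiking type, and *Th* and calretinin (*Calb2*) mark further types. *Nkx2-1* and *Lhx6* act in sequence in precursors from the medial ganglionic eminence that give rise to the somatostatin and parvalbumin types. *Vip* and *Cck* are best known from interneurons of the cortex, and *Cck* is also made by many cortical excitatory neurons.

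RNA was measured in 40 libraries in 10 groups of 4. In RiboTag, the ribosomal protein RPL22 carrying a haemagglutinin (HA) tag is expressed from an adeno-associated virus (AAV) in a chosen cell type, and RNA on tagged ribosomes is then immunoprecipitated (IP). The input was taken from the cleared lysate before the IP and holds RNA of all striatal cells. Wild-type C57/BL6NTac mice gave 4 astrocyte IP and 4 input libraries, and a separate cohort of wild-type C57/BL6NTac mice gave 4 neuron IP and 4 input libraries (hSYN1 promoter). A SAPAP3 cohort gave IP and input libraries of wild-type (WT) C57/BL6J mice and of C57/BL6J-Dlgap3 KO mice, which lack SAPAP3, the postsynaptic scaffold protein encoded by *Dlgap3*. Bulk striatal RNA was measured in a further 4 WT and 4 KO libraries, whose labels give C57/BL6NTac as the strain of both genotypes and repeat 1 animal identifier across them. Mice of the wild-type cohorts received the AAV in the dorsal striatum when 6 weeks old and those of the SAPAP3 cohort when 4.5 months old, and the ages at collection were not given in the sources used here. The labels of the first cohort do not name its AAV, which was taken as the astrocyte RiboTag (GfaABC1D promoter) from the methods and gene tables of the study. No source used here names the cell type of the RiboTag in the SAPAP3 cohort. The promoter of each AAV sets which cells carry the tag, and the methods of the study describe some AAV expression along the needle track in cortex.

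Every library held between 23438112 and 84109800 counted reads. *Dlgap3* was lower in KO than in WT in every set of libraries (log2(FC) = -1.19 in the inputs, -1.40 in the IPs and -1.14 in bulk striatum), and no KO library reached the level of a WT library of its own set. The adjusted p-value of *Dlgap3* was 0.007 in the inputs and 0.028 in the IPs, but 0.32 in bulk striatum (edgeR). The 10 astrocyte markers rose in the astrocyte IP and in both IPs of the SAPAP3 cohort, while 7 fell and 1 rose in the neuron IP. The 8 microglia markers and the 7 endothelial markers fell in all 4 IPs. Of the 8 oligodendrocyte markers 6 rose in each IP of the SAPAP3 cohort (median log2(FC) = 0.75 in WT and 0.77 in KO), while 1 rose and 3 fell in the astrocyte IP and all 8 fell in the neuron IP. Y-linked RNA without *Xist* was found in all libraries of the astrocyte cohort, and *Xist* RNA in all libraries of the neuron cohort, so that sex, cohort and RiboTag cannot be told apart between these cohorts. *Xist* without Y-linked RNA was found in 1 of 4 libraries of each SAPAP3 cohort group. The same was found in 1 of 4 bulk WT and 0 of 4 bulk KO libraries, so that sex was not balanced between the bulk genotypes. The bulk and input libraries measure tissue RNA, in which fewer cells of a type and less RNA per cell cannot be told apart.

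The members lie on 10 different chromosomes of GRCm38.p6, the assembly of mm10. *Sst* (chr16:23889573-23891342) and *Npy* (chr6:49822710-49829507) are short genes with merged exons of 968 and 566 bases, while the 28 merged exons of *Nos1* (chr5:117866839-117958840) sum to 9695 bases. No member had a near-identical copy elsewhere. Long noncoding RNA genes lie on the opposite strand over *Nos1* and *Cck*, and as the use of strand in counting is not stated, reads of these genes and their antisense partners cannot be told apart. RefSeq windows of 250 bases upstream of the start site were listed for 9 of the 10 members, with none listed for *Calb2*, and 1 start site was used for each gene. The start sites used for *Sst*, *Vip* and *Lhx6* lie inside the gene spans of the annotation, so that the *Sst* stretch shown, although upstream of its start site, lies within the span given above. The cyclic AMP response element (CRE), TGACGTCA, was searched on both strands because it is the best known regulatory sequence of the somatostatin gene. The full element was present in the windows of *Sst* and *Th* and in 1.55% of 32851 windows in all. The shorter core TGACG, which the full element also holds, was present in the windows of *Vip*, *Cck* and *Nos1* as well and in 17.8% of all windows. The 30 bases around each match follow, 5′ to 3′ on the strand of the gene in GRCm38.p6 (RefSeq), with the match, read on either strand, in capitals.
Sst, 48 bases upstream of the start site used (chr16:23890874-23890903, minus strand): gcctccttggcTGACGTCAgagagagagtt
Th, 45 bases upstream (chr7:142900022-142900051, minus strand): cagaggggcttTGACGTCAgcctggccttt
Vip, 79 bases upstream (chr10:5639127-5639156, plus strand): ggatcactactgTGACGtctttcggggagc
Cck, 47 bases upstream (chr9:121495724-121495753, minus strand): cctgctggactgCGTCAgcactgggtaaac
Nos1, 130 bases upstream (chr5:117866697-117866726, plus strand): aaaccagccatgCGTCAggcttggcttcag
The windows of *Npy*, *Pvalb*, *Lhx6* and *Nkx2-1* held neither sequence. *Sst* and *Th*, which share the full element, are both among the members that rose in every IP described below, and so are *Npy*, *Lhx6* and *Nkx2-1*, whose windows hold no match.

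Counts divided by the total of their library and brought to a common scale (CPM) compare 1 gene between libraries, and CPM divided by the merged exon length in kilobases (FPKM, computed here) compare genes. On the FPKM scale *Npy* had the highest mean level of the 10 members in each of the 10 groups, from 97.7 ± 3.22 FPKM (SD, n = 4) in the astrocyte cohort inputs to 329 ± 26.0 in the astrocyte IP. *Nkx2-1* had the lowest mean level in every group, between 0.392 ± 0.0534 FPKM in the neuron cohort inputs and 1.41 ± 0.187 in the astrocyte IP. *Nos1* was at 4.15 ± 0.122 FPKM in the astrocyte cohort inputs, below *Sst* at 75.2 ± 2.62 FPKM. In that IP *Nos1* was at 34.9 ± 1.70 FPKM, and only *Npy* and *Sst* were higher by their means.

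**Figure D1:**
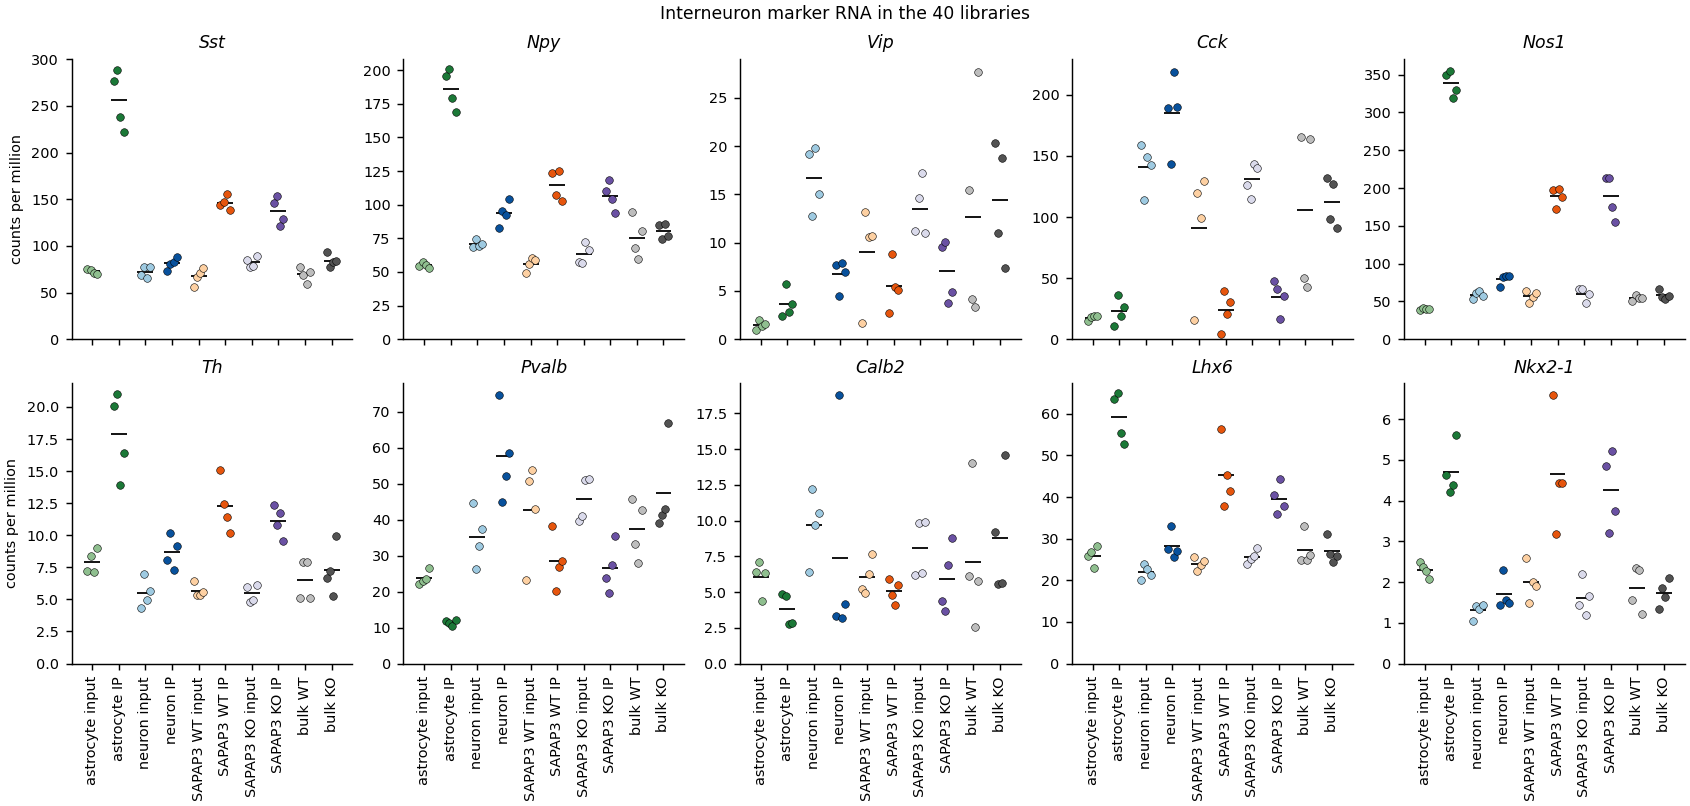
CPM of each interneuron marker (linear axis from 0) in the 40 libraries, by group, with points for single libraries and a line for the group mean. *Sst*, *Npy*, *Nos1*, *Th*, *Lhx6* and *Nkx2-1* were highest in the astrocyte IP, *Cck* and *Pvalb* in the neuron IP, and *Vip* and *Calb2* in the neuron cohort inputs.

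The members fell into patterns by where their CPM was highest. *Sst*, *Npy*, *Nos1*, *Th*, *Lhx6* and *Nkx2-1* all had their highest mean in the astrocyte IP, followed by the WT and then the KO IP of the SAPAP3 cohort. For *Sst*, *Npy* and *Nos1* the astrocyte IP libraries lay above every other library, while for *Th*, *Lhx6* and *Nkx2-1* their range overlapped that of the WT IP of the SAPAP3 cohort. The WT and KO IPs of that cohort overlapped for all 6 of these genes. *Cck* and *Pvalb* had their highest mean in the neuron IP, and *Vip* and *Calb2* in the neuron cohort inputs, in each case with ranges that overlapped the group next in order. These levels are set side by side without a test, as cohort, strain and RiboTag differ together.

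Astrocyte IP was compared with its own input to see which markers rose in it. Which cells the marker RNA in this IP came from was not tested. In all, 7 of the 10 interneuron markers rose and *Pvalb* fell at an adjusted p-value under 0.05 (edgeR quasi-likelihood test, adjusted over all genes). Of the 15476 genes tested, 39.2% rose and 41.2% fell. All 7 that rose also passed the limit of the study on log2(FC) of 1, which 13.4% of all genes passed upwards and 13.5% downwards, whereas *Pvalb* did not. *Nos1*, the synthase of neuronal nitric oxide, was at 38.9, 41.7, 40.6 and 39.8 CPM in the 4 inputs and at 350, 355, 320 and 330 CPM in the 4 IPs. This was the largest change of any member (9.81-fold, log2(FC) = 3.29 ± 0.046 (SE), adjusted p = 2e-12), with every IP far above every input. For comparison, the 10 astrocyte markers rose by a log2(FC) of 2.53 to 3.64 in the same libraries, with a median of 3.13. The highest of them was *Slc1a2*, which encodes the main astrocyte glutamate transporter.

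The neuropeptide genes of the same cell type rose less than *Nos1*. *Sst* was at 75.4, 74.4, 71.5 and 69.9 CPM in the inputs and at 276, 289, 238 and 222 CPM in the IPs (log2(FC) = 2.04 ± 0.079, adjusted p = 7.5e-10, edgeR). *Npy* was at 54.8, 57.7, 55.4 and 53.3 CPM in the inputs and at 196, 201, 180 and 169 CPM in the IPs (log2(FC) = 1.97 ± 0.058, adjusted p = 8.3e-11). For both peptides all 4 IP libraries lay above all 4 inputs, and replicates 1 and 2 of the IP were the highest.

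The transcription factor genes and *Th* followed in the same direction. *Lhx6* rose from 26.0 ± 2.28 to 59.3 ± 6.04 CPM (log2(FC) = 1.41 ± 0.080, adjusted p = 1.7e-08), and *Nkx2-1*, whose product precedes LHX6 in development, rose from 2.30 ± 0.180 to 4.71 ± 0.625 CPM (log2(FC) = 1.25 ± 0.12, adjusted p = 2.4e-06; SD, n = 4, edgeR). *Th*, which encodes the rate-limiting enzyme of catecholamine synthesis, rose from 7.92 ± 0.933 to 17.9 ± 3.28 CPM (log2(FC) = 1.40 ± 0.13, adjusted p = 1.7e-06). The IP and input libraries did not overlap for any of these genes.

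*Vip* and *Cck*, the peptide genes best known from cortex, were low in this cohort. *Vip* was at 0.965, 2.04, 1.37 and 1.62 CPM in the inputs and at 2.44, 5.68, 2.81 and 3.63 CPM in the IPs (log2(FC) = 1.49 ± 0.29, adjusted p = 0.00062, edgeR). The highest *Vip* library, IP replicate 2, also had the highest *Cck* level. *Cck* was at 14.7, 17.8, 19.2 and 18.9 CPM in the inputs and at 10.5, 35.9, 18.9 and 26.0 CPM in the IPs, and the groups overlapped (log2(FC) = 0.59 ± 0.29, adjusted p = 0.08, edgeR). With the mouse as a block *Cck* passed the test (log2(FC) = 0.51, adjusted p = 0.0073), as it did without IP replicate 1 (0.84, adjusted p = 0.0018). The summed CPM of 10 cortical excitatory markers varied in step in these IPs, from 133 to 329, and their part in the *Vip* and *Cck* values was not tested.

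The calcium-binding protein genes did not rise. *Pvalb*, the marker of fast-spiking interneurons, was at 22.2, 23.1, 23.7 and 26.6 CPM in the inputs and at 11.9, 11.4, 10.5 and 12.2 CPM in the IPs (log2(FC) = -0.83 ± 0.068, adjusted p = 4.4e-07, edgeR). No IP library reached the lowest input, so the somatostatin and the parvalbumin markers moved apart in the same libraries. *Calb2* was at 6.05 ± 1.18 CPM in the inputs and 3.79 ± 1.15 CPM in the IPs (log2(FC) = -0.45 ± 0.21, adjusted p = 0.072). It passed the test with the mouse as a block (-0.46, adjusted p = 0.0024), with total counts as the only scaling (-0.67, adjusted p = 0.013), and without input replicate 3 (adjusted p = 0.03), IP replicate 1 or IP replicate 2 (adjusted p = 0.033 for each).

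**Figure D2:**
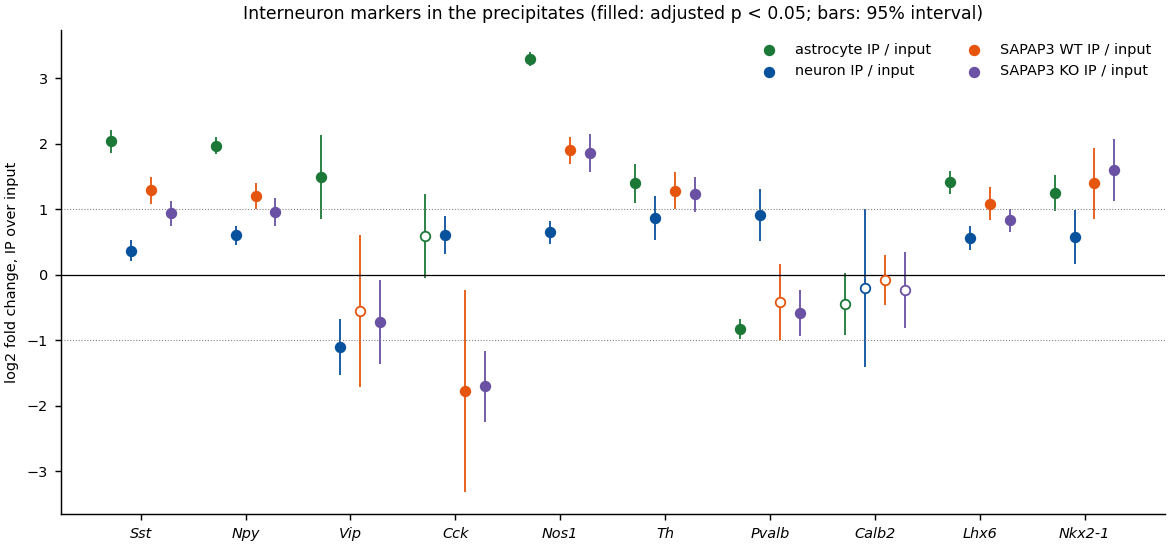
Log2 fold change of IP over input for each interneuron marker in the astrocyte, neuron, SAPAP3 WT and SAPAP3 KO comparisons, with 95% intervals. Filled points passed an adjusted p-value of 0.05, open points did not, and dotted lines mark a log2 fold change of 1 and -1. *Nos1*, *Sst*, *Npy*, *Th*, *Lhx6* and *Nkx2-1* rose in all 4 comparisons, while *Pvalb*, *Vip* and *Cck* differed in direction between them.

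Neuron IP was compared with its own input in the same way. Here 8 of the 10 markers rose and *Vip* fell at an adjusted p-value under 0.05, against 35.5% of the 16198 genes tested that rose and 35.9% that fell. None of the 8 passed the limit of 1 on the log2 scale, which only 0.42% of all genes passed upwards. *Vip* passed it downwards, as did 15.8% of all genes. *Pvalb* rose most, from 44.6, 26.2, 32.7 and 37.4 CPM in the inputs to 74.7, 45.0, 52.3 and 58.5 CPM in the IPs with the same numbers (1.89-fold, log2(FC) = 0.92 ± 0.18, adjusted p = 0.00091, edgeR). *Pvalb* was higher in the IP of all 4 pairs, with replicate 1 the highest and replicate 2 the lowest of both groups, and the highest input lay just below the lowest IP.

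*Th* rose from 5.48 ± 1.13 to 8.69 ± 1.25 CPM (SD, n = 4; log2(FC) = 0.87 ± 0.15, adjusted p = 0.00045, edgeR). *Nos1* was at 52.7, 61.6, 63.2 and 57.3 CPM in the inputs and at 69.1, 82.5, 83.7 and 83.5 CPM in the IPs (log2(FC) = 0.65 ± 0.078, adjusted p = 3.9e-05). The groups did not overlap for *Nos1* or *Th*, but the *Nos1* change was 1.56-fold here against 9.81-fold in the astrocyte IP. *Npy* rose by a log2(FC) of 0.61 ± 0.064 and *Sst* by 0.37 ± 0.071 (adjusted p = 1.5e-05 and 0.00091). For *Sst* the inputs (65.6 to 77.8 CPM) and the IPs (73.1 to 88.1 CPM) overlapped, and with total counts as the only scaling its change was 0.17 (adjusted p = 0.06, edgeR).

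*Lhx6* rose by a log2(FC) of 0.56 ± 0.082 (adjusted p = 0.00014) and *Nkx2-1* by 0.58 ± 0.18 (adjusted p = 0.016). The *Nkx2-1* value rests on 1.31 ± 0.178 CPM in the inputs and 1.70 ± 0.401 CPM in the IPs, and with total counts as the only scaling it was 0.37 (adjusted p = 0.098, edgeR). *Cck* rose from 141 ± 19.3 to 185 ± 30.9 CPM (log2(FC) = 0.60 ± 0.13, adjusted p = 0.0022). *Vip*, the other peptide of cortical interneurons, fell instead, from 19.2, 12.8, 19.8 and 15.03 CPM to 7.65, 4.48, 7.89 and 6.93 CPM (log2(FC) = -1.10 ± 0.19, adjusted p = 0.00048). All 4 IPs were below all 4 inputs for *Vip*, in a cohort where the cortical excitatory markers had a median log2(FC) of 0.14 with 2 of 10 called higher and 1 lower.

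*Calb2* in the neuron IP was decided by 1 library. It was at 6.37, 12.2, 9.67 and 10.5 CPM in the inputs and at 3.35, 18.8, 3.17 and 4.19 CPM in the IPs. Replicate 2 of the IP thus stood far above the other 3, which were all below the inputs. Over all libraries the log2(FC) was -0.20 ± 0.54 (adjusted p = 0.75, edgeR), and without that library it was -1.23 (adjusted p = 0.00052).

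The difference between these enrichments was tested as an interaction term, neuron minus astrocyte. In all, 7 of the 10 markers were enriched less in the neuron IP and *Pvalb* more, against 34.3% of 16371 genes that were lower and 35.8% that were higher. The log2 difference was -2.65 ± 0.095 for *Nos1*, -2.59 ± 0.38 for *Vip*, -1.67 ± 0.11 for *Sst* and -1.37 ± 0.089 for *Npy* (adjusted p between 1.8e-13 and 1.1e-05). It was smaller for *Lhx6* (-0.85 ± 0.12, adjusted p = 8e-06), *Nkx2-1* (-0.68 ± 0.22, adjusted p = 0.011) and *Th* (-0.53 ± 0.21, adjusted p = 0.034). The call of *Th* was lost in 8 of the fits that left out 1 library, without input replicate 1 or 3 or IP replicate 1 or 2 of the astrocyte cohort, or input replicate 2 or 4 or IP replicate 1 or 3 of the neuron cohort (adjusted p between 0.055 and 0.094). *Pvalb* went the other way (1.75 ± 0.21, adjusted p = 1.3e-06), while *Cck* (0.01 ± 0.35) and *Calb2* (0.25 ± 0.66) were not called.

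In the SAPAP3 cohort the IP was compared with the input within each genotype. In WT mice 6 of the 10 markers rose and *Cck* fell, where 32.7% of 15587 genes rose and 34.6% fell. All 6 that rose passed the limit of 1 (10.9% of all genes), and so did *Cck* downwards (12.1%). In KO mice the same 6 genes, *Nos1*, *Nkx2-1*, *Th*, *Npy*, *Sst* and *Lhx6*, rose and *Cck*, *Vip* and *Pvalb* fell, where 36.1% of 15583 genes rose and 35.9% fell. *Nos1*, *Nkx2-1* and *Th* passed the limit upwards in KO (12.3% of all genes) and *Cck* downwards (11.5%). These 6 genes also rose in both wild-type cohorts above. Oligodendrocyte markers rose with them, from summed levels of 5641 to 6567 CPM in the WT inputs to 6905 to 10137 CPM in the WT IPs and from 5789 to 6056 CPM in the KO inputs to 6445 to 8954 CPM in the KO IPs, and their part in the members' values was not tested.

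*Nos1* was again the most enriched member. It was at 63.8, 47.9, 56.0 and 60.9 CPM in the WT inputs and at 198, 173, 199 and 188 CPM in the WT IPs (log2(FC) = 1.90 ± 0.094, adjusted p = 4e-07, edgeR). In KO mice it was at 66.6, 65.8, 48.1 and 60.0 CPM in the inputs and at 213, 214, 174 and 155 CPM in the IPs (log2(FC) = 1.86 ± 0.13, adjusted p = 5.1e-07). IP and input did not overlap in either genotype. *Sst* rose 2.45-fold in WT (log2(FC) = 1.29 ± 0.094, adjusted p = 2.9e-06) and 1.92-fold in KO (0.94 ± 0.085, adjusted p = 3e-06). *Npy* rose 2.30-fold in WT (1.20 ± 0.090) and 1.95-fold in KO (0.96 ± 0.099), with no overlap between IP and input for either peptide.

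*Nkx2-1* rose by a log2(FC) of 1.40 ± 0.24 in WT and 1.60 ± 0.22 in KO, from 2.00 ± 0.459 and 1.62 ± 0.428 CPM in the inputs. *Th* rose by 1.28 ± 0.13 in WT and 1.23 ± 0.12 in KO, and *Lhx6* by 1.08 ± 0.11 and 0.83 ± 0.080 (adjusted p of 0.0007 or less for all of these, edgeR). The 3 genes did not overlap between IP and input in either genotype.

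*Cck* fell in both genotypes, where *Sst* and *Npy* rose. It was at 126, 115, 143 and 140 CPM in the KO inputs and at 47.3, 40.9, 16.4 and 35.1 CPM in the KO IPs, with no overlap (log2(FC) = -1.70 ± 0.25, adjusted p = 9.5e-05, edgeR). In WT it was at 15.8, 120, 99.4 and 130 CPM in the inputs and at 4.24, 39.2, 21.0 and 30.2 CPM in the IPs (log2(FC) = -1.78 ± 0.69, adjusted p = 0.043). Both libraries of WT mouse 1 were the lowest of their group. The WT call was lost with limma-voom (adjusted p = 0.076) and without any of input replicates 2, 3 and 4 or IP replicates 1, 3 and 4 (adjusted p between 0.06 and 0.099), while with the mouse as a block the adjusted p was 7.6e-07. The 10 cortical excitatory markers fell with *Cck*, 6 of them in WT and 10 in KO, and their part in the *Cck* value was not tested.

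*Vip* and *Pvalb* had negative values in both genotypes and were called in KO. *Vip* had a log2(FC) of -0.55 ± 0.52 in WT (adjusted p = 0.36, edgeR) and -0.73 ± 0.29 in KO (adjusted p = 0.042). The KO call of *Vip* was lost without input replicate 2 or 3 or IP replicate 3 or 4 (adjusted p between 0.084 and 0.12). *Pvalb* had a log2(FC) of -0.42 ± 0.26 in WT (adjusted p = 0.18) and -0.58 ± 0.16 in KO (adjusted p = 0.006). Without input replicate 1, the WT library low in cortical RNA, the WT values were -0.89 for *Vip* (adjusted p = 0.032) and -0.62 for *Pvalb* (adjusted p = 0.016). *Calb2* was not called in WT (-0.08 ± 0.17) or KO (-0.24 ± 0.26).

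Genes of other lists were counted in the same comparisons. Of 26 other interneuron genes, 15 rose and 5 fell in the astrocyte IP (median log2(FC) = 0.50, against -0.02 over all genes), led by *Tacr1* (2.77 ± 0.050), *Chodl* (2.07 ± 0.12) and *Sox6* (1.99 ± 0.036). *Tacr1* encodes the substance P receptor, and *Chodl* marks the interneurons that make *Sst*, *Npy* and *Nos1*. *Sox6* acts downstream of *Lhx6* in interneuron development and is also active in glia. In the neuron IP 8 of the 26 rose and 6 fell (median 0.14), and in the SAPAP3 cohort 11 rose in each genotype, with 5 lower in WT and 8 in KO. Over all genes 39.2% rose in the astrocyte IP, 35.5% in the neuron IP, 32.7% in the WT IP and 36.1% in the KO IP, so that the neuron count of this list was no higher than that over all genes. *Tacr1* had a log2(FC) of 0.76 ± 0.14 in the neuron IP, 2.04 ± 0.16 in the WT IP and 2.25 ± 0.17 in the KO IP of the SAPAP3 cohort.

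Genes that all GABAergic neurons use had small values where the members had large ones. In the astrocyte IP *Gad1* had a log2(FC) of 0.19 ± 0.044 and *Gad2* of -0.02 ± 0.041 (both encode the enzymes that make GABA), and *Slc32a1*, the vesicular GABA transporter, of -0.35 ± 0.065. In the neuron IP all of these rose, by 0.80 ± 0.065, 0.57 ± 0.11 and 0.81 ± 0.096. The 10 medium spiny neuron markers, which all fell in the astrocyte IP (median -0.97), all rose in the neuron IP (median 0.91). Among the 6 cholinergic interneuron markers 5 rose in the astrocyte IP (median 2.27) and in each IP of the SAPAP3 cohort (2.11 and 2.23), and 6 in the neuron IP (median 1.09). *Chat*, the acetylcholine-synthesizing enzyme, rose from 31.0 ± 3.63 to 144 ± 3.68 CPM in the astrocyte IP. Of the 10 cortical excitatory markers 5 rose and 1 fell in that IP (median 0.80), led by *Fezf2* (1.89 ± 0.21). Of the 10 pan-neuronal markers 5 rose and 2 fell there, with a median of 0.16.

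**Figure D3:**
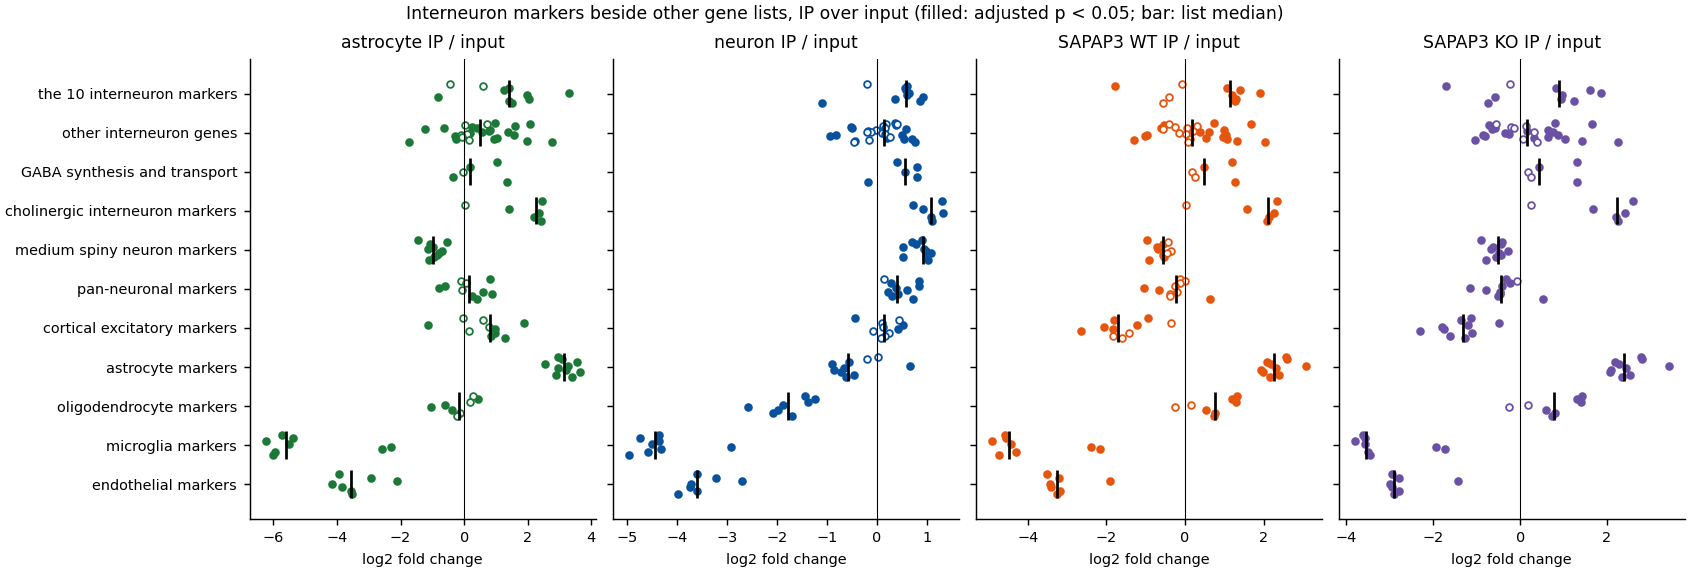
Log2 fold change of IP over input for single genes (points) of the interneuron markers and of other gene lists in the 4 comparisons, each on its own axis, with a bar at each list median. Filled points passed an adjusted p-value of 0.05. In the astrocyte IP the medians of the interneuron markers (1.41) and the cholinergic list (2.27) lie to the right of 0, with *Pvalb* and *Calb2* to the left, and the medians of the medium spiny (-0.97) and microglia (-5.61) lists lie to the left.

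The partners of the members in their pathways gave mixed counts. Of 13 receptors for these neuropeptides that were tested, 5 rose and 5 fell in the astrocyte IP (median -0.07) and 3 rose and 2 fell in the neuron IP (median 0.10). *Adcyap1r1*, which encodes the PACAP receptor of the VIP receptor family, led in the astrocyte IP (1.98 ± 0.048), and *Vipr1*, a VIP receptor, fell (-1.46 ± 0.072). Of 9 other genes of nitric oxide signalling none rose and 6 fell in the astrocyte IP, the opposite of *Nos1*, and 4 rose and 4 fell in the neuron IP, with the soluble guanylate cyclase subunit *Gucy1b3* at 0.86 ± 0.046. Of 8 other genes of catecholamine synthesis and transport tested in the astrocyte IP 3 rose and 4 fell, and *Maob*, which breaks down dopamine and is high in astrocytes, rose by 2.68 ± 0.046.

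Interneuron marker RNA in whole tissue was then described over the 24 input and bulk libraries. Each library was taken as its deviation from its group mean on the log2(CPM + 0.5) scale, and the correlations share these libraries and have no p-value. *Cck* followed the summed cortical excitatory markers most closely (r = 0.98, n = 24 libraries), with *Vip* next (r = 0.94). The genes most like *Cck* among 11787 were *Rtn4rl2*, *Tmem178* and *Neurod2* (r of 0.99 for each). *Vip* and *Cck* had an r of 0.92 with each other. *Npy* (r = 0.71), *Pvalb* (0.65) and *Sst* (0.62) followed the cortical markers less, and *Nkx2-1* (-0.75), *Th* (-0.65), *Nos1* (-0.37) and *Lhx6* (-0.34) were negative. These relations were not particular to the cortical list. With the summed pan-neuronal markers r was 0.95 for *Cck*, 0.93 for *Vip* and 0.78 for *Npy*. With the summed medium spiny neuron markers it was -0.91, -0.93 and -0.69. *Th* had an r of 0.79 with the summed cholinergic markers. *Calb2* had an r of -0.06 with the cortical markers, and the gene most like it was *AW551984* (0.96).

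**Figure D4:**
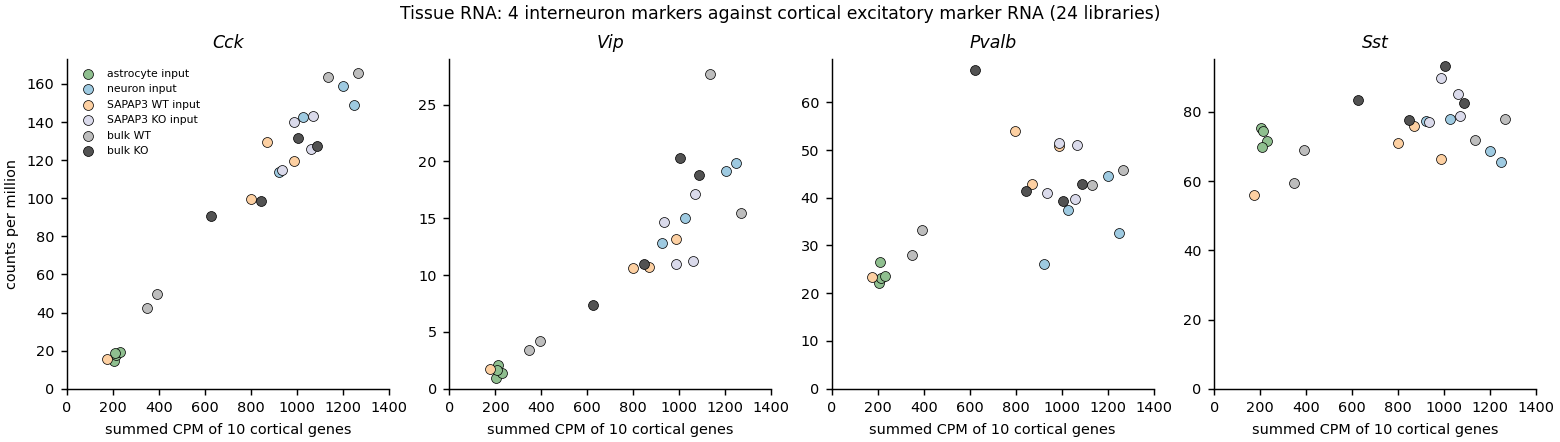
CPM of *Cck*, *Vip*, *Pvalb* and *Sst* (vertical axes from 0) against the summed CPM of 10 cortical excitatory markers in the 24 input and bulk libraries, coloured by group. The 4 astrocyte cohort inputs, 1 SAPAP3 WT input and 2 bulk WT libraries lie at the low end for *Cck* and *Vip*, while *Sst* spans a narrow range throughout.

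A few libraries were low in cortical RNA. Summed cortical markers were between 205 and 230 CPM in the 4 astrocyte cohort inputs and at 175 CPM in SAPAP3 WT input replicate 1, against 798 to 1248 CPM in the other inputs. *Cck* was at 15.8 CPM and *Vip* at 1.71 CPM in that WT library, and at 42.4 to 49.7 CPM and 3.36 to 4.19 CPM in bulk WT replicates 2 and 3, which had cortical sums of 392 and 347 CPM. In the same 3 libraries *Nos1* was at 63.8, 58.1 and 54.4 CPM, within the range of the other tissue libraries. Without the WT input the r with cortical markers was 0.97 for *Cck*, 0.92 for *Vip*, 0.47 for *Sst* and 0.46 for *Pvalb*. How much of this RNA came from tissue next to the striatum was not tested.

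Each of the other members had different genes most like it. *Npy* was most like *Lmo4* (r = 0.90), *Sst* most like *Spon1* (0.86), and *Nos1* most like *Nkain3* (0.84). *Pvalb* was most like *Kcng4* (0.94), *Th* most like *Dctd* (0.87), *Vip* most like *Ipo5* (0.97), *Lhx6* most like *Gabrg1* (0.81) and *Nkx2-1* most like *Sncaip* (0.88). *Sst* and *Npy*, which striatal interneurons make together, had an r of 0.68 with each other. *Nos1*, made in the same interneurons, had an r of 0.04 with *Sst* and -0.38 with *Npy*.

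The SAPAP3 KO libraries were compared with the WT libraries in the inputs, the IPs and bulk striatum to see whether loss of SAPAP3 altered interneuron RNA. None of the 10 markers was called in any of these comparisons with edgeR or DESeq2, and *Sst* alone had an unadjusted p-value under 0.05, in the inputs and in bulk striatum. Few genes were called at all, 0.00641% of 15591 in the inputs, 0.0263% of 15198 in the IPs and 0% of 16020 in bulk striatum. *Dlgap3* itself was not called in bulk striatum (adjusted p = 0.32, edgeR). A missing call there thus does not show that a member was unchanged. In bulk striatum 792 genes had an unadjusted p-value under 0.05, and DESeq2 called 12 genes higher and 5 lower.

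*Sst* had the smallest p-value of the members in the inputs and in bulk striatum. In the inputs it was at 56.0, 66.5, 71.1 and 75.8 CPM in WT and at 85.2, 77.0, 78.8 and 89.7 CPM in KO, so that every KO library lay above every WT library. This was so for 4.14% of all genes in the inputs, and *Sst* was the only such member. The log2(FC) was 0.32 ± 0.099 (95% interval 0.10 to 0.54, unadjusted p = 0.0088, adjusted p = 0.73, edgeR). In bulk striatum it was at 77.9, 69.1, 59.5 and 72.0 CPM in WT and at 93.4, 77.8, 82.6 and 83.6 CPM in KO, where the ranges overlapped at 1 library each (log2(FC) = 0.25 ± 0.093, 95% interval 0.04 to 0.46, unadjusted p = 0.024, adjusted p = 0.98). In the IPs the value was -0.07 ± 0.086 (95% interval -0.26 to 0.12, adjusted p = 1), and the ranges overlapped. The lowest WT input for *Sst*, replicate 1, was low in cortical RNA (summed markers of 175 CPM). So was the lowest bulk WT library, replicate 3 (347 CPM). With each library left out in turn, the *Sst* value ran from 0.24 to 0.38 in the inputs and from 0.19 to 0.32 in bulk striatum.

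**Figure D5:**
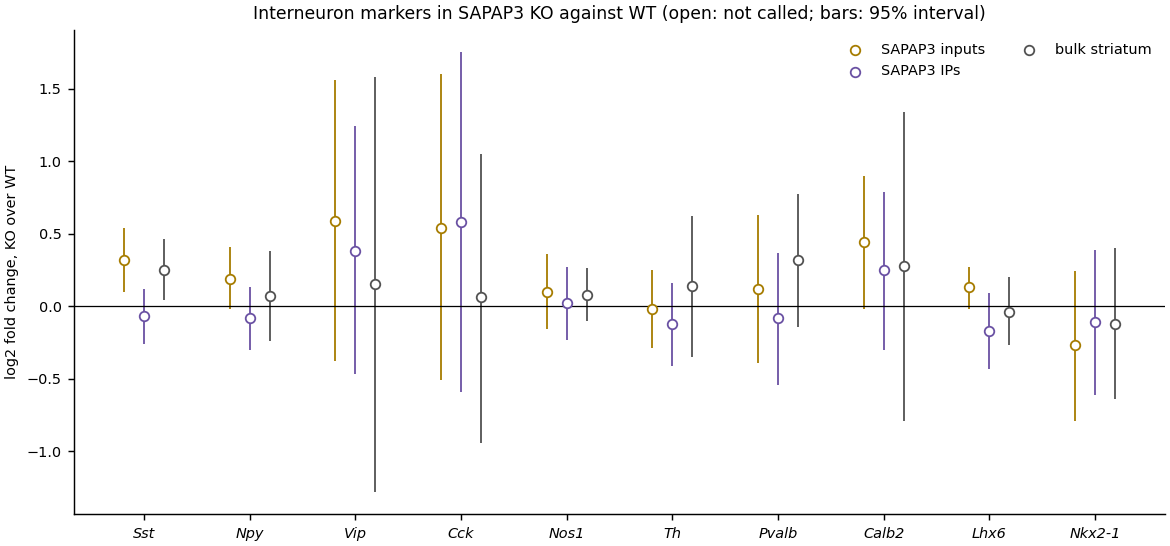
Log2 fold change of SAPAP3 KO over WT for each interneuron marker in the inputs, the IPs and bulk striatum, with 95% intervals. All points are open, as no marker passed an adjusted p-value of 0.05, and in the inputs and the IPs the intervals of *Vip* and *Cck* are the widest.

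The other members had values in either direction. In the inputs *Vip* (0.59 ± 0.44), *Cck* (0.54 ± 0.47), *Calb2* (0.44 ± 0.20), *Npy* (0.19 ± 0.097), *Lhx6* (0.13 ± 0.065), *Pvalb* (0.12 ± 0.23) and *Nos1* (0.10 ± 0.12) had positive log2 values, and *Th* (-0.02 ± 0.12) and *Nkx2-1* (-0.27 ± 0.23) negative ones (adjusted p of 0.73 or more for each, edgeR). For *Vip* and *Cck*, the members with the widest errors, WT replicate 1 was far below the other 3 WT inputs. In the IPs *Cck* (0.58 ± 0.53), *Vip* (0.38 ± 0.38), *Calb2* (0.25 ± 0.25) and *Nos1* (0.02 ± 0.11) were positive and *Lhx6* (-0.17 ± 0.12), *Th* (-0.12 ± 0.13), *Nkx2-1* (-0.11 ± 0.23), *Pvalb* (-0.08 ± 0.20) and *Npy* (-0.08 ± 0.095) negative. With the summed cortical markers as a covariate the *Cck* values turned to -0.05 in the inputs and -0.19 in the IPs, and *Vip* in the IPs to -0.24. No range of any member was separate between genotypes in the IPs, where 1.44% of all genes were separate.

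In bulk striatum the ranges of all 10 members overlapped between genotypes, where 3.33% of all genes did not overlap. *Pvalb* was at 45.9, 33.2, 27.99 and 42.6 CPM in WT and at 39.2, 41.4, 42.9 and 66.8 CPM in KO (log2(FC) = 0.32 ± 0.20, adjusted p = 0.98). Its highest library, KO replicate 4, also had the highest *Calb2* (14.6 CPM) and *Th* (9.93 CPM) of the bulk libraries. In this library RNA of the dopamine transporter *Slc6a3* was at 15.7 CPM, against at most 0.597 CPM in the other 39 libraries. The summed CPM of 4 thalamic markers was 101 there, against 15.7 to 42.6 in the other bulk libraries. Its summed cortical markers, at 625 CPM, were the lowest of the bulk KO group. The part of such RNA in the *Pvalb*, *Calb2* and *Th* values was not tested. Without this library and the 2 bulk WT libraries low in cortical RNA, the *Pvalb* value was -0.14. *Calb2* (0.28 ± 0.47), *Vip* (0.15 ± 0.63), *Th* (0.14 ± 0.21), *Nos1* (0.08 ± 0.078), *Npy* (0.07 ± 0.14), *Cck* (0.06 ± 0.44), *Lhx6* (-0.04 ± 0.10) and *Nkx2-1* (-0.12 ± 0.23) made up the rest.

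Whether the enrichment in the IP differed by genotype was tested as an interaction, KO minus WT. None of the 10 members was called, as was 0% of 16059 genes (203 at an unadjusted p-value under 0.05 with edgeR, and 1 called by DESeq2). *Sst* had a log2 difference of -0.39 ± 0.14 (unadjusted p = 0.012, adjusted p = 1) and *Lhx6* of -0.29 ± 0.14 (unadjusted p = 0.047). The differences were -0.27 ± 0.14 for *Npy*, -0.21 ± 0.65 for *Vip*, -0.20 ± 0.33 for *Pvalb*, -0.19 ± 0.35 for *Calb2*, -0.10 ± 0.17 for *Th*, -0.08 ± 0.17 for *Nos1*, 0.03 ± 0.78 for *Cck* and 0.17 ± 0.33 for *Nkx2-1*.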

How the data were processed

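RNA was sequenced from mouse striatum in 40 libraries. The authors aligned reads to mm10 with STAR and deposited 1 table of raw gene counts, with HTSeq named in the submitters' processing notes; the annotation and the use of strand in counting are not given in the sources used here. Totals ran from 23438112 to 84109800 counts a library, with the fewest reads a library for *Vip* (24), *Nkx2-1* (40), *Calb2* (123) and *Th* (139), whose counting error is largest. The labels name a TruSeq Stranded kit and the methods a Nugen Ovation kit.

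Counts were tested with edgeR 4.0.16 in R 4.3.3 (quasi-likelihood test, filterByExpr, TMM scaling, only the groups compared, Benjamini-Hochberg adjustment over all genes tested). Rose, fell and called mean an adjusted p-value under 0.05. Errors of fold changes are SE, and 95% intervals use the t quantile at the degrees of freedom of edgeR. Differences between enrichments were interaction terms. Alternatives were limma-voom (limma 3.58.1), DESeq2 1.42.0, other scalings and filters, an *Xist* or cortical marker covariate, a mouse block, and each library left out in turn. The fits were tested on simulated counts.

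The animal identifier pairs IP with input in the astrocyte and SAPAP3 cohorts, and in the neuron cohort, where the labels give input and IP different animal identifiers, the number in the title was used. Over 11762 genes the deviations from the group means correlated within every pair (lowest r of 0.248, 0.480, 0.534 and 0.434 in the astrocyte, neuron, SAPAP3 WT and SAPAP3 KO sets), and by -0.149 to -0.202 on average between other libraries. The negative averages follow from centring each group on its own mean and add nothing to the values within pairs.

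Named genes were all 10 members, up to 3 genes of each list with the largest changes, *Gad1*, *Gad2*, *Slc32a1*, *Dlgap3*, sex genes and the 3 genes most like each member among those at 5 CPM or more. Members and lists were chosen with earlier results of these data known. Promoter windows and positions come from RefSeq, GRCm38.p6.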

Additional observations from a re-analysis of the deposited data

Results flagged for a closer look

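Single libraries stood apart from the other 3 of their group by Dixon's criterion at the 95% level in 5 of the 100 combinations of member and group tested, and chance alone flags about 1 in 20. *Calb2* was at 18.78 CPM in neuron IP replicate 2, against 3.174 to 4.193 CPM in the other neuron IPs, and *Nkx2-1* was highest in the same library, at 2.293 CPM against 1.447 to 1.569 CPM. *Nos1* was at 69.07 CPM in neuron IP replicate 1, below 82.53 to 83.68 CPM in the others. *Pvalb* was at 66.81 CPM in bulk KO replicate 4, against 39.22 to 42.87 CPM, in the library with the highest *Slc6a3* RNA. *Lhx6* was at 33.07 CPM in bulk WT replicate 2, against 24.83 to 26.14 CPM.

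The enrichment in the IP differed between the neuron and the astrocyte RiboTag for 8 members by the interaction term of edgeR. The log2 difference, neuron minus astrocyte, was -2.65 for *Nos1*, -2.59 for *Vip*, -1.67 for *Sst*, -1.37 for *Npy*, -0.85 for *Lhx6*, -0.68 for *Nkx2-1* and -0.53 for *Th*, and 1.75 for *Pvalb*. RiboTag, cohort and sex cannot be told apart in these differences.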

How the results depend on the processing

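The number of members called stayed within 1.5 times its value under every setting tried, at 6 to 10 in the astrocyte IP, 7 to 10 in the neuron IP, 6 to 9 in the SAPAP3 WT IP, 8 to 9 in the SAPAP3 KO IP, 7 to 9 for neuron minus astrocyte and 0 in every KO against WT comparison. The replicate block raised the astrocyte IP count from 8 to 10 (*Cck* 0.51, *Calb2* -0.46) and changed no other call. Total counts as the only scaling moved the median of all genes by -0.25, -0.21, -0.20 and -0.21 on the log2 scale in the astrocyte, neuron, WT and KO IPs. *Th* for neuron minus astrocyte lost its call with limma-voom (adjusted p = 0.07), and *Vip* in the KO IP with DESeq2 (adjusted p = 0.074) and in 1 fit of 16 libraries (adjusted p = 0.17). Without both libraries of WT mouse 1, *Vip* (-0.63) and *Pvalb* (-0.76) were called in the WT IP. The cortical covariate and the fits without that mouse or without 3 bulk libraries were chosen after seeing the data. Depth limits *Nkx2-1* and *Vip*, at a few CPM or less in some groups.

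Direction changed only for values that were not called, and the cause was not tested. With cortical markers as a covariate KO against WT was -0.05 for *Cck*, 0.05 for *Th* and -0.18 for *Pvalb* in the inputs; -0.24 for *Vip*, -0.19 for *Cck*, -0.01 for *Nos1*, 0.19 for *Pvalb*, 0.01 for *Lhx6* and 0.20 for *Nkx2-1* in the IPs; and -0.03 for *Npy*, -0.06 for *Vip*, -0.08 for *Cck* and 0.07 for *Nkx2-1* in bulk. With *Xist* as a covariate it was -0.03 for *Nos1* in the IPs and -0.06, -0.30, -0.32 and -0.16 for *Npy*, *Vip*, *Cck* and *Calb2* in bulk, and with total counts *Nos1* in the IPs was 0.0. Without the 3 bulk libraries it was -0.13 for *Npy*, -0.39 for *Vip*, -0.50 for *Cck*, -0.14 for *Pvalb*, 0.06 for *Lhx6* and 0.17 for *Nkx2-1*. Neuron minus astrocyte for *Cck* was -0.03 with DESeq2, -0.02 with RLE size factors and -0.12 with the FPKM filter, and for *Calb2* -0.16 with limma-voom and -0.04 with the replicate block. KO minus WT for *Cck* was -0.02 with limma-voom and with the replicate block.

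With each library or mouse left out, *Calb2* ran from -1.23 to 0.06 in the neuron IP and from -0.19 to 0.06 in the WT IP. KO against WT in the inputs ran from -0.08 to 0.03 for *Th* and -0.09 to 0.26 for *Pvalb*, and in the IPs from -0.06 to 0.11 for *Nos1*, -0.24 to 0.09 for *Pvalb* and -0.26 to 0.10 for *Nkx2-1*. In bulk it ran from -0.03 to 0.20 for *Npy*, -0.16 to 0.87 for *Vip*, -0.20 to 0.38 for *Cck*, 0.00 to 0.12 for *Nos1*, -0.04 to 0.26 for *Th*, -0.07 to 0.80 for *Calb2*, -0.12 to 0.05 for *Lhx6* and -0.28 to 0.00 for *Nkx2-1*. Neuron minus astrocyte ran from -0.23 to 0.32 for *Cck* and -0.78 to 0.50 for *Calb2*, and KO minus WT from -0.44 to 0.13 for *Vip*, -0.32 to 0.39 for *Cck*, -0.16 to 0.01 for *Nos1*, -0.17 to 0.00 for *Th* and -0.36 to 0.17 for *Pvalb*.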
